A study of Mus musculus with 2 samples.

Results

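Annexins are proteins that bind negatively charged phospholipids of cell membranes when calcium rises, through a conserved core of repeats, while a variable N-terminal end gives each member its partners. In gut epithelium they are known at the apical membrane, in vesicle traffic, in membrane resealing and in wound repair. The levels of 10 annexin genes, Anxa1 to Anxa7, Anxa9, Anxa11 and Anxa13, were examined among 17305 genes measured on 2 oligonucleotide arrays. The genes were chosen by name, and each was read from its brightest probe set (the group of probes that reports 1 gene) annotated to that gene alone. Anxa8 and Anxa10, also measured, are given beside them.

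The graft array held small intestinal epithelium of EGFP-transgenic mice of C57BL6 background that had been cultured as organoids, self-renewing spheres of epithelium, placed in the colonic lumen of C57BL6 recipients and collected 4 weeks later. The control array held normal colonic epithelium of a C57BL6 control mouse. Both epithelia were laser-microdissected, 4.33 ng of total RNA was amplified for each, and the design text states that the graft and the colon with the best RNA integrity were selected. The promoter of the EGFP transgene and the age of the mice are not given in the labels. With 1 array per group, no difference has a replicate check or a p-value, every value describes these 2 samples, and ungrafted small intestine was not analysed here.

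Levels are log2 values as deposited, and differences are graft minus colon, so that 1 is a 2-fold difference. Genes were counted only where at least 1 array read no less than 5.48, the median over all gene values, a filter that 9392 genes passed. The only error in the table is the disagreement between 2 probe sets of 1 gene, and it leaves out variation between animals. The gap between the graft minus colon differences of the 2 probe sets had an SD of 0.48 over 586 genes. The labels were checked against marker genes. Of 10 small intestinal enterocyte markers, 8 were higher in the graft by 2-fold or more (mean level 9.30 in the graft, against 5.52 in the colon), and all 10 colonocyte markers were lower by more than 2-fold (5.61 against 9.90). All 12 general epithelial markers passed the filter, and 0 of them differed by 2-fold.

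Among the 10 annexins, 2 were strongly lower in the graft and 1 was modestly higher. Anxa1 and Anxa3 were at least 4-fold lower, Anxa13 was 2.09-fold higher, and the other 7 differed by less than 2-fold. Over all genes that passed the filter, 5.68% were at least 2-fold lower and 3.55% at least 2-fold higher, while 1.37% were at least 4-fold lower and 1.1% at least 4-fold higher. Of the 10 members, 9 passed the filter, and the remaining one, Anxa9, was dim on both. The median difference of the 10 was -0.16, against 0 over all 17305 genes measured. That of the 9 that passed the filter was -0.41, against -0.047 over the 9392 genes that passed. Both medians rest on the brighter probe set of Anxa6, whose dimmer probe set differed in sign, so they give no direction. The median of 0 falls among ties, since 2910 of the 24074 probe sets read exactly the same on both arrays. The members' differences had an SD of 1.41 and spanned 3.99, from -2.93 to 1.07, whereas the differences of all genes passing the filter had an SD of 0.72. Much of this spread came from Anxa1 and Anxa3, at -2.63 and -2.93, while the other members lay between -0.75 and 1.07. The SD of the members also includes Anxa9, which did not pass the filter.

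**Figure D1:**
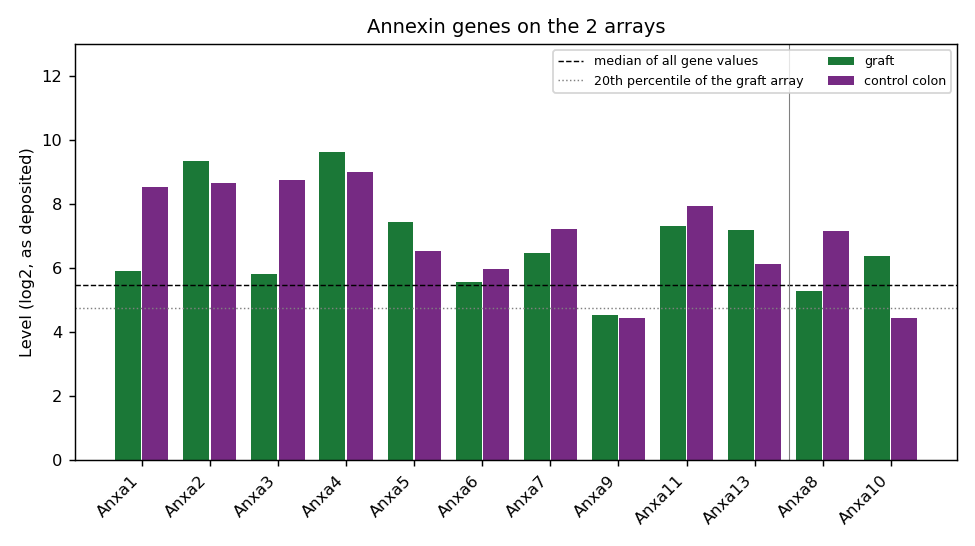
Level (log2, as deposited) of each annexin gene on the graft array (green) and on the control colon array (purple), 1 array each, with Anxa8 and Anxa10 right of the vertical line. Anxa1 and Anxa3 stand at 5.90 and 5.82 in the graft, against 8.53 and 8.74 in the colon, and both bars of Anxa9 lie under the dotted line at the 20th percentile.

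Anxa1, a glucocorticoid-inducible protein that restrains phospholipase A2 and acts on formyl peptide receptors to limit inflammation and promote epithelial repair, had a level of 5.90 in the graft, against 8.53 in the colon. Its difference was -2.63, a 6.20-fold lower level in the graft, and 75 of the 9392 genes (0.799%) were at least as far below 0. Anxa3, a phospholipid-binding member also found in neutrophils, had a level of 5.82 in the graft, against 8.74 in the colon. Its difference was -2.93, or 7.61-fold, and 57 genes (0.607%) were at least as far below 0. Neither gene was at the lower end of the graft array: Anxa1 lay at percentile 62.6 of the graft array and 93.0 of the colon array, and Anxa3 at percentile 60.5 of the graft array and 93.7 of the colon array. In such bulk samples, fewer cells of a type and less RNA per cell cannot be told apart.

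Both genes are also expressed outside the epithelium, so marker lists of other cells are given beside them. Their counts stand against shares of 5.68% at least 2-fold lower and 3.55% at least 2-fold higher over all genes that passed the filter. Of 9 measured neutrophil markers, 1 lay under the 20th percentile of the graft array (4.75) and 7 under that of the colon array (4.74). The calprotectin subunits S100a8 and S100a9 were 4.04-fold and 2.56-fold higher in the graft, though their colon values of 4.54 and 4.70 lay under the 20th percentile and leave these folds undetermined. Ly6g, at 5.42 in the graft, against 10.84 in the colon, differed in the other direction. Of 14 fibroblast and smooth muscle markers, 1 was 2-fold lower in the graft, with levels from 4.85 to 7.37 (mean 5.87) in the graft and from 4.90 to 7.99 (mean 6.18) in the colon. Of 16 leukocyte markers, 0 differed by 2-fold (mean 5.34 in the graft, against 5.10 in the colon), and 11 stayed under the filter. Of 10 endothelial markers (mean 5.08 in the graft, against 4.97 in the colon), 9 stayed under it, and Egfl7, the one that passed, was 2.34-fold higher in the graft. The part of these cells in the annexin differences was not tested.

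**Figure D2:**
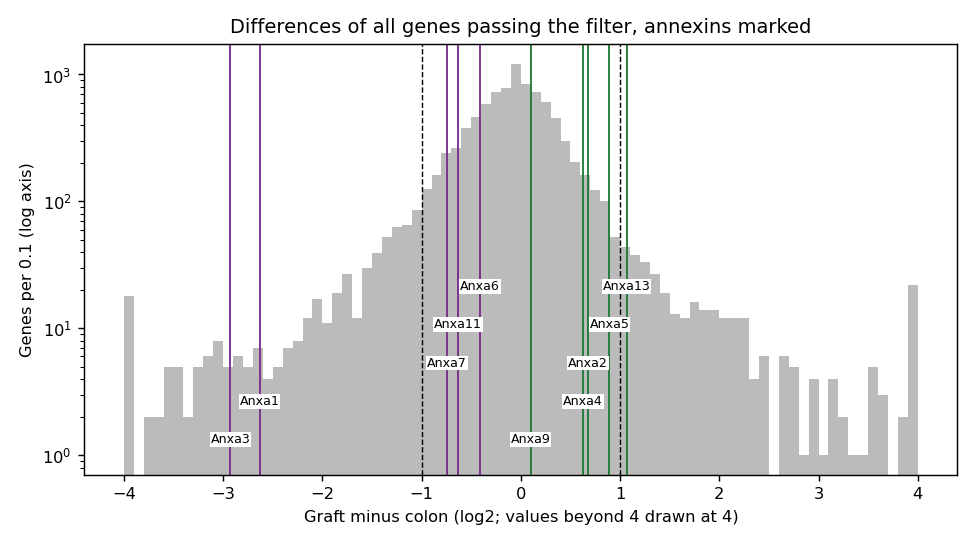
Number of genes (log axis) by graft minus colon difference (log2) over the genes that passed the filter, with the 10 annexins marked by vertical lines, purple where lower and green where higher in the graft, and dashed lines at 2-fold. Anxa1 and Anxa3 lie in the left tail at -2.63 and -2.93, and Anxa9, which did not pass the filter, is marked at 0.098.

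Anxa13, Anxa2 and Anxa4 each had a higher value in the graft, and Anxa13 alone reached 2-fold. Anxa13, the intestinal annexin that carries a myristoyl group and takes part in apical delivery, had a level of 7.21 in the graft, against 6.14 in the colon. Its difference of 1.07 was only slightly over the 2-fold threshold, and 3.23% of the genes that passed the filter were at least as far above 0. Anxa2, which with S100a10 forms a tetramer that links membranes to actin, stood at 9.34 in the graft, against 8.66 in the colon, a difference of 0.68. Anxa4, an abundant epithelial annexin that modulates chloride conductance, stood at 9.63 in the graft, against 9.01 in the colon, a difference of 0.62. Both differences were under 2-fold and smaller than the SD of 0.72 over all genes that passed the filter, of which 6.81% and 7.67% were at least as far above 0 as Anxa2 and Anxa4.

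Anxa5, the phosphatidylserine-binding member used as a label of dying cells, had a level of 7.44 in the graft, against 6.54 in the colon, and its difference of 0.89 was just under 2-fold. Anxa7 and Anxa11, which have long N-terminal ends and act in vesicle fusion and, for Anxa11, in the transport of RNA granules on lysosomes, were both lower in the graft by less than 2-fold. Anxa7 stood at 6.46 in the graft, against 7.21 in the colon, a difference of -0.75. Anxa11 stood at 7.31 in the graft, against 7.94 in the colon, a difference of -0.64.

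Anxa6, which has a duplicated core and binds cholesterol-rich membranes, was the only one of the 10 with more than 1 probe set. Its brighter probe set read 5.57 in the graft, against 5.98 in the colon, a difference of -0.41, and the dimmer read 5.50 in the graft, against 5.39 in the colon, a difference of 0.10. The 2 probe sets disagreed in sign, so no direction is given for Anxa6. Anxa9, which has lost much of the calcium binding of other annexins, read 4.54 in the graft, against 4.44 in the colon, both under the arrays' 20th percentiles. Signal cannot be told from background there, so a level of Anxa9 was not determined.

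Anxa8 and Anxa10 differed in opposite directions. Anxa8, a member of stratified and injured epithelia, had a level of 5.29 in the graft, against 7.16 in the colon, a difference of -1.87 (3.66-fold lower). Anxa10, best known from gastric epithelium, had a level of 6.39 in the graft, against 4.44 in the colon, a difference of 1.96. The colon value of Anxa10 lay at percentile 1.59 of its array, so its fold of 3.88 is not determined beyond the values themselves. With both genes added, 3 of 12 annexins were at least 2-fold lower and 2 at least 2-fold higher in the graft. The shares over all genes that passed the filter were 5.68% and 3.55%.

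The 150 bases before the annotated start are shown for Anxa1, Anxa8 and Anxa10, which differed most among annexin genes with a single window. Anxa2 and Anxa5, which differed less, are shown beside them. No window was found for Anxa3, Anxa6 and Anxa13, so Anxa3, the member with the largest difference, is missing here. The sequences are from RefSeq on GRCm38.p6 and are written 5′ to 3′ on the gene's strand, with CG pairs and TATAAA in capitals.
Anxa1, chr19:20390672-20390821, minus strand: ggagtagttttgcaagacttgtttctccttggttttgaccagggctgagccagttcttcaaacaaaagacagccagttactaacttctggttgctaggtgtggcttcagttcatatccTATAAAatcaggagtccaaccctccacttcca
Anxa8, chr14:34085829-34085978, plus strand: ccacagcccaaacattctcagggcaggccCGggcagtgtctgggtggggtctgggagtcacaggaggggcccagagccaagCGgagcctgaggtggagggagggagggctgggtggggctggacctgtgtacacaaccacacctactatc
Anxa10, chr8:62123194-62123343, minus strand: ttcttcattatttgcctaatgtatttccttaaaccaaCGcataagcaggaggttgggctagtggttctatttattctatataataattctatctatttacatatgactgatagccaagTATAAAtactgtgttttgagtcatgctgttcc
Anxa2, chr9:69453533-69453682, plus strand: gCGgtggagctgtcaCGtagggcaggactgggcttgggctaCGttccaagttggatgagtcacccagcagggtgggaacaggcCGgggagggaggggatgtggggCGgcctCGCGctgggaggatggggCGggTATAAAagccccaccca
Anxa5, chr3:36475888-36476037, minus strand: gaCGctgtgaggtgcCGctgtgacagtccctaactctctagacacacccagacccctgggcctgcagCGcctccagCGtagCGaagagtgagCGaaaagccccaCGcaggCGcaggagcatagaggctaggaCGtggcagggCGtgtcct
In these stretches, CG pairs numbered 0 for Anxa1, 2 for Anxa8 and 1 for Anxa10, against 8 for Anxa2 and 10 for Anxa5. Promoter windows were found for 9 of the 12 annexin genes, 12 windows in all, and CG pairs were counted over the 250 bases before each start. Anxa1, Anxa8 and Anxa10 had 2, 4 and 1, below the median of 6 over all 32851 windows, and Anxa2, Anxa5 and Anxa11 had 9, 13 and 17. Anxa4, Anxa7 and Anxa9 have 2 windows each, with 2 and 13, 2 and 16, and 3 and 30 CG pairs. TATAAA, searched on both strands, occurred in 3 of the 12 windows, those of Anxa1, Anxa2 and Anxa10, and in 12.4% of all windows. GGGCGG, searched likewise, occurred in 4 of the 12, those of Anxa2, Anxa11 and both of Anxa7, and in 32.7% of all windows. These genes were chosen for display after their values were seen, and a match is a description only.

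Annexins act with S100 proteins, small calcium-binding dimers that hold annexin N-terminal ends. Of 15 measured genes of this list, which includes the S100-binding protein S100pbp, 2 were at least 2-fold higher and 2 at least 2-fold lower in the graft, with a median difference of 0.091. Only the 12 genes of the list that passed the filter could be counted. Over all genes passing it, 3.55% were at least 2-fold higher and 5.68% at least 2-fold lower. The median of the 12 had the opposite sign, at -0.40, so no direction is given for the list. S100a10, the partner of Anxa2, was at 10.14 in the graft, against 10.23 in the colon, a difference of -0.092, while Anxa2 itself had a difference of 0.68. S100a11, the partner of Anxa1, was at 11.31 in the graft, against 10.44 in the colon, a difference of 0.87, opposite in sign to the -2.63 of Anxa1. S100a6, which binds Anxa2 and Anxa11, was at 11.15 in the graft, against 11.90 in the colon. The epithelial S100a14 was 3.90-fold lower and S100a13 3.37-fold lower, whereas S100a8 and S100a9 were the genes on the higher side.

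Of the 2 gene lists linked to Anxa1, the eicosanoid enzymes went in both directions and the glucocorticoid genes mostly had lower values in the graft. Of 12 measured eicosanoid enzymes, 3 were at least 2-fold higher and 2 at least 2-fold lower in the graft (median difference 0.37), and the formyl peptide receptors were not analysed here. All 12 passed the filter, and the shares over all genes passing it were 3.55% higher and 5.68% lower. Pla2g4a, the cytosolic phospholipase A2, read 6.72 in the graft, against 6.66 in the colon, a difference of 0.05. The 5-lipoxygenase pathway genes Alox5ap and Alox5 were 6.25-fold and 3.68-fold higher, and both are also tuft and myeloid cell genes. The prostaglandin D synthase Hpgds was 2.09-fold higher. The secreted phospholipase Pla2g10 was 3.48-fold lower, and the prostaglandin-degrading Hpgd was 2.27-fold lower. Of 11 glucocorticoid-responsive or glucocorticoid-handling genes, 3 were lower by 2-fold or more and 0 were higher by that much (median difference -0.40). Among the 9 that passed the filter, 8 had a lower value in the graft, 0 a higher one and 1 was equal. The share of all genes with a lower value was not counted. The median of the 9 was -0.65, against -0.047 over all genes that passed. Hsd11b2, which inactivates glucocorticoids in colonic epithelium, was 5.37-fold lower at 5.81 in the graft, against 8.23 in the colon. The chaperone Fkbp5 was 2.57-fold lower and the kinase Sgk1 2.04-fold lower, the receptor gene Nr3c1 had a difference of -0.40, and Tsc22d3, the leucine zipper protein GILZ, of -0.30.

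**Figure D3:**
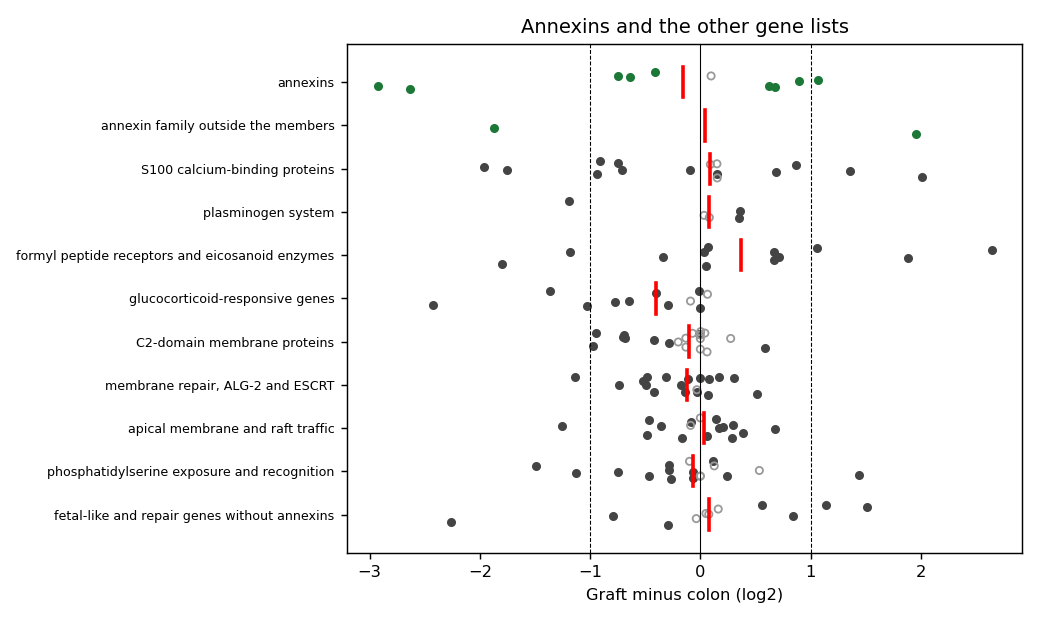
Graft minus colon difference (log2) of each measured gene in the annexin family and in 9 lists of related genes, with filled points for genes that passed the filter, open points for those that did not, a red bar at the list median and dashed lines at 2-fold. Medians over all measured genes run from -0.40 for the glucocorticoid list to 0.37 for the eicosanoid list, and the annexins at the top spread from -2.93 to 1.07.

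For genes of calcium-dependent membrane repair and traffic, counts are read beside the shares over all genes that passed the filter. These were 5.68% at least 2-fold lower and 3.55% at least 2-fold higher, so the small 2-fold counts below do not set these lists apart. Of 18 genes for membrane repair, ALG-2 and ESCRT, 0 were 2-fold higher and 1, the calpain Capn5, was 2.21-fold lower, with a median of -0.13. Pdcd6, which encodes ALG-2, a partner of Anxa7 and Anxa11, had a difference of 0.17, and Sri, sorcin, another partner of Anxa7, of 0.08. Ahnak, a scaffold of Anxa2, had a difference of -0.49, and the protease Capn2 of -0.48. Of 20 ferlin, copine and other C2-domain genes, 0 differed by 2-fold and 11 stayed under the filter, with a median of -0.10 that these dim genes pull towards 0. Of the 9 that passed, 8 had a lower value in the graft, a count with no share over all genes beside it. The median of the 9 was -0.68, against -0.047 over all genes that passed the filter. The ferlin Myof had a difference of -0.70, and Dysf, dysferlin, of 0.28 at levels under the filter.

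Of 16 genes for apical membrane and raft traffic, 0 were 2-fold higher and 1, Cav2 of caveolae, was 2.39-fold lower at a graft value of 4.58, under the 20th percentile. The median difference of these genes was 0.029, and 14 of the 16 passed the filter. Among all genes passing it, 5.68% were at least 2-fold lower and 3.55% at least 2-fold higher. Lgals4, a lectin of apical rafts, had a difference of -0.49. Of 17 genes for phosphatidylserine exposure and recognition, the process that Anxa5 reads, 2 were at least 2-fold lower and 1 at least 2-fold higher (median difference -0.067). Only 12 of the 17 passed the filter and could be counted. Ano6, a scramblase, was 2.72-fold higher, the bridging ligand Gas6 2.80-fold lower, the scramblase-family gene Plscr1 2.18-fold lower, and Mfge8, a phosphatidylserine-binding bridge to phagocytes, had a difference of 0.24. In the plasminogen system, which Anxa2 assembles at cell surfaces, 1 of 5 measured genes, the plasminogen receptor Plgrkt, was 2.28-fold lower in the graft, and Plat, tissue plasminogen activator, read 4.79 in the graft, against 4.76 in the colon. Only 3 of the 5 genes, without Plat, passed the filter.

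Anxa1, Anxa3, Anxa8 and Anxa10 are also used as markers of fetal-like or injured epithelium. Of 11 other measured genes of that kind, 2 were at least 2-fold higher and 1 lower in the graft, with a median of 0.077. Only 7 of the 11 passed the filter and could be counted. The shares over all genes passing it were 3.55% higher and 5.68% lower. Cldn4, a tight junction protein, was 2.85-fold higher, the keratin Krt7 2.20-fold higher and Il1rn, the interleukin-1 receptor antagonist, 4.81-fold lower at 5.21 in the graft, against 7.48 in the colon. Clu, a marker of revival stem cells, read 5.39 in the graft, against 5.31 in the colon, under the filter on both arrays.

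**Figure D4:**
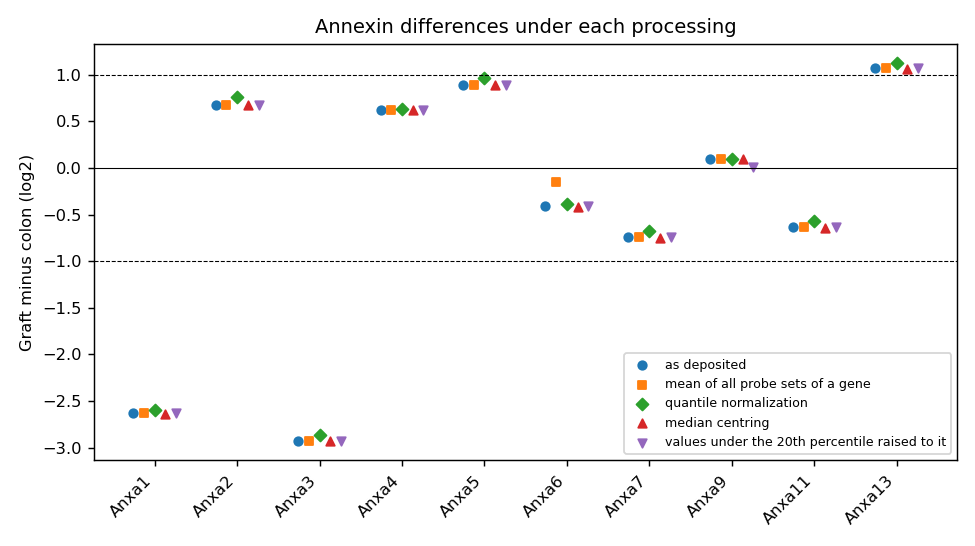
Graft minus colon difference (log2) of each of the 10 annexins as deposited and under 4 other ways of processing, with dashed lines at 2-fold. Anxa1 and Anxa3 stay below -2 throughout, and the largest move, 0.26, is that of Anxa6 when its probe sets are averaged.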

How the data were processed

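Total RNA of 1 graft and 1 control colon was read on 2 single-channel arrays. The authors deposited 1 value for each of 24074 probe sets on each array. The unit, log2, was read from the deposited values, which run from 4.19 to 13.37 and from 4.22 to 13.46. Software, background correction, normalization and genome build were not stated in the labels, and no detection calls come with the values. Amplification of small RNA amounts can distort single transcripts. The platform annotation gave 1 symbol to 18904 probe sets, several to 1330 and none to 3840, and only the first kind was used. All 12 annexin genes matched the RefSeq table of GRCm38.p6 by Entrez identifier.

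The brightest probe set by mean of both arrays stood for a gene, and no further normalization was applied. No test of the condition can be made with 1 array per group. The counting procedure, not the annexin counts, was checked on simulated levels. Named genes were all members, Anxa8 and Anxa10, partner genes listed by name, and up to 4 genes per list past 2-fold, with up to 2 in the opposite direction. Clu was named outside this rule. The members and lists were chosen with earlier results of these data known. Alternatives were averaging of probe sets, quantile normalization, median centring, a floor at the 20th percentile, other filters and other thresholds. The number of arrays limits the precision. Work was done in Python 3.11.15 with pandas 2.3.3 and numpy 2.4.6.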

Additional observations from a re-analysis of the deposited data

How the results depend on the processing

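The signs of the 10 annexin differences were kept in all 40 values recomputed with averaged probe sets, quantile normalization, median centring or a floor at the 20th percentile, and no value moved by more than 0.26. Most of these values could hardly change. Averaging leaves the 9 members with 1 probe set as they were, and the floor altered only Anxa9. Median centring shifts all genes by the same small amount. The kept signs are thus little evidence that the differences are robust. The dimmer probe set of Anxa6, an alternative added after seeing the data, gave 0.10 in place of -0.41, the opposite sign. The median of the annexins lay between -0.41 and -0.028 over the alternatives. This median rests on the brighter probe set of Anxa6 or on the mean of its probe sets, and was not recomputed with the dimmer. Its sign is therefore not determined. The count of annexins at least 2-fold lower was 2 in 7 of the 8 alternatives listed at the outset and 4 at a 1.5-fold threshold. The count at least 2-fold higher, 1 as reported, was 0 at a 4-fold threshold and 4 at a 1.5-fold threshold. With Anxa8 and Anxa10 included, also chosen after seeing the data, it was 2, against 3 lower. Of 36 medians of the 9 other lists recomputed with averaged probe sets, another normalization or the floor, 0 changed sign. Taken only over genes that passed the filter, a choice made after seeing the data, 1 of 9 did, that of the S100 list, from 0.091 to -0.40. The medians of the C2-domain, glucocorticoid, phosphatidylserine and fetal-like lists were then -0.68, -0.65, -0.27 and 0.56, in place of -0.10, -0.40, -0.067 and 0.077. No paired analysis was possible because each group has 1 array. Signal over background is unknown, so differences against a level near the lower end are not determined.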
